A study of Mus musculus with 26 samples.

Results

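Apoe, the genes beside it in its cluster, and a small set of other apolipoprotein genes were followed across 26 RNA-seq libraries of mouse microglia that differ in the genes Tmem106b and Grn. The set has 7 members of the 52636 genes in the count tables, matched by gene symbol to their Ensembl identifiers: Apoe, Apoc1, Apoc2, Apoc4, Apobec1, Apod and Clu. Microglia are the resident macrophages of the brain. Progranulin, the product of Grn, is secreted and also sorted to lysosomes, and TMEM106B spans the membrane of late endosomes and lysosomes. The labels write the genotypes as TMEM and GRN, each WT, HET or KO, and the series compares mice that are KO or HET for Tmem106b, alone or with Grn HET or KO, with WT mice.

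With Tmem106b WT, there were 3 libraries of Grn WT, 5 of Grn HET and 4 of Grn KO mice. With Tmem106b HET, there were 4 libraries of Grn WT, 3 of Grn HET and 3 of Grn KO mice. Tmem106b KO was combined only with Grn WT (n = 4). By their labels, 14 of the 26 came from females and 12 from males, with both sexes in every group. A dissection label read Entire for 18 libraries and Hemi for 8, without further explanation, and every group but Tmem106b HET Grn HET held at least 1 Hemi library. The age of the mice, the kind of each mutant allele, the way the microglia were isolated and any pooling of animals are not given in the sources used here. Nothing in the labels says that each library came from a separate mouse, so the p-values speak only of the spread from library to library, which may be technical in part.

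Apolipoproteins are the protein components of lipoprotein particles. APOE is the main one made in the brain, where astrocytes secrete it at rest and microglia make more of it when they respond to damage. It takes up cholesterol and phospholipid that membrane transporters hand over, and neighbouring cells take up the particles through receptors of the LDL receptor family and through TREM2 on microglia. The small proteins encoded by Apoc1, Apoc2 and Apoc4 ride on the same particles. APOC2 activates lipoprotein lipase, while APOC1 slows lipoprotein clearance. Clu encodes clusterin, or apolipoprotein J, an extracellular chaperone that astrocytes and choroid plexus make in large amounts, and Apod encodes a lipocalin that binds small lipids. Apobec1 encodes the cytidine deaminase that edits Apob mRNA in the gut and many 3′ ends of mRNAs in macrophages.

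Coordinates are those of GRCm38. The cluster lies on the minus strand of chromosome 7 within 27.6 kb, with Apoe (ENSMUSG00000002985) at chr7:19696109-19699188, Apoc1 (ENSMUSG00000040564) at chr7:19689481-19692660, Apoc4 (ENSMUSG00000074336) at chr7:19678083-19681479 and Apoc2 (ENSMUSG00000002992) at chr7:19671579-19677941. Apobec1 (ENSMUSG00000040613) lies at chr6:122577792-122602444 and Apod (ENSMUSG00000022548) at chr16:31296192-31314808, both on the minus strand. Clu (ENSMUSG00000022037) lies on the plus strand at chr14:65968483-65981547. All 7 are annotated as protein coding. The predicted gene Gm44805 covers both Apoc2 and Apoc4 on the same strand: 79.5% of the exonic bases of Apoc2 and 4.7% of those of Apoc4 lie also in other genes' exons.

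The promoters of Apoe and Apoc4 are shown because these are the 2 members that passed the test in a genotype comparison. The sequences are RefSeq's for GRCm38.p6, from 250 bases before to 50 after the first transcribed base, on the minus strand. For Apoe, which has 3 starts in that table, the window of the outermost start is shown. It lies at chr7:19699139-19699438, and that of Apoc4 at chr7:19681411-19681710, where RefSeq's start lies 19 bases inside the annotated gene. Capitals mark motifs found by their letters.
Apoe: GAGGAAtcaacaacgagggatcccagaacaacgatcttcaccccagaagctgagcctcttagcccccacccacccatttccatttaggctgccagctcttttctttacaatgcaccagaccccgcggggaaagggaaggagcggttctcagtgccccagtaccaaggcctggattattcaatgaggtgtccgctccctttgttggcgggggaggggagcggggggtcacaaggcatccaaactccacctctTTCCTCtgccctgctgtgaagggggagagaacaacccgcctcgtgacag
Apoc4: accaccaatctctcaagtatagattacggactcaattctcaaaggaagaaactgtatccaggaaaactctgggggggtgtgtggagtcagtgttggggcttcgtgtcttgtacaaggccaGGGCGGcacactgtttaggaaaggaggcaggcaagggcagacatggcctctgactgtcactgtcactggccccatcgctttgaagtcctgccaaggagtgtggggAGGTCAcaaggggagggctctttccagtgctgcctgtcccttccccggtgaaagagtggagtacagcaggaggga
Of the 7 members 5 had entries in that table, and 6 motifs were searched on both strands. With the first transcribed base as position 0, the Apoe window held GAGGAA, the core of PU.1 sites, at -250 and, on the opposite strand, at 1. The Apoc4 window held AGGTCA, a site known for nuclear receptors, at -25, which overlaps the shared run described next, and the GC box GGGCGG at -130. Of 32851 promoters of this length, 28.3% held GAGGAA, 16.3% AGGTCA and 35.7% GGGCGG, so each match is common. The TATA box TATAAA (13.6% of promoters), the E-box CACGTG (7.15%) and the AP-1 site TGACTCA (5.2%) were not among the letters of these 2 windows. The windows of the other Apoe starts, not printed, held TATAAA at -96 and, on the opposite strand, at -100 in one, and GAGGAA at -132 in the other. Apoe and Apoc4 also share the 10-base run GGTCACAAGG, at -27 and -24, which 42 promoters (0.128%) hold. That run was noticed after the sequences were seen, and other pairs of members share runs of up to 11 bases.

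Levels are in CPM, the deposited read count of a gene scaled to its library's total after TMM normalization, and given as mean ± SD. Total counts were 37.6 to 63.7 M per library (median 48.8 M). Grn was at 0 to 16.0 CPM in the 7 Grn KO libraries against 3344 ± 906 CPM (n = 3) in Tmem106b WT Grn WT. Tmem106b was at 28.2 ± 5.13 CPM (n = 4) in Tmem106b KO against 77.6 ± 10.1 CPM (n = 3) in Tmem106b WT Grn WT, with no overlap but with 36.3% of the wild-type level left. The 10 microglial markers, Tmem119 and P2ry12 among them, summed to 21175 to 60617 CPM in 24 libraries. The other two, Tmem106b HET Grn KO replicate 3 and Tmem106b KO Grn WT replicate 2, both Hemi, had 7485 and 7179 CPM, with 6509 and 6465 CPM of 12 neuronal markers, which reached 2884 CPM at most elsewhere. Another library, Tmem106b WT Grn HET replicate 5, also Hemi, held 25477 CPM of choroid plexus and ependymal markers.

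Differences are log2 fold changes with their standard error (SE) from edgeR's quasi-likelihood test, with sex and dissection as covariates, and p-values are two-sided and adjusted over all 21371 genes tested with a threshold of 0.05. Of the 7 members 6 were tested, since Apoc2 did not pass the filter on low counts. In Grn KO against Grn WT, Apoe and Apoc4 rose in both Tmem106b backgrounds, and no member fell. That is 2 of 6 members where 0.576% of all genes passed and 0.426% passed as higher (Tmem106b WT), and 2 of 6 where 14.5% passed and 8.42% passed as higher (Tmem106b HET). Against Grn HET, 1 member (Apoe) rose in Tmem106b WT, where 0.941% of genes passed and 0.678% were higher, and 2 (Apoe and Apoc4) in Tmem106b HET, where 6.54% passed and 3.77% were higher. Grn KO against WT and against HET share their Grn KO libraries.

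Apoe, the lipid carrier of the cluster, had more reads than any other gene in every Grn KO library. In Tmem106b WT Grn WT it stood at 7046, 4547 and 6560.2 CPM. The 5 Grn HET libraries of that background had 9352, 12041, 7653, 6679 and 10791 CPM. The 4 Grn KO libraries had 49490.4, 54887, 78168 and 83057 CPM. All 4 lay above every Grn WT and Grn HET library, the Hemi library at 54887 CPM included, while Grn HET overlapped Grn WT. With Tmem106b HET the Grn WT libraries had 7348, 5304, 4506 and 3278 CPM and the Grn HET libraries 8061, 5834 and 9978 CPM. The 3 Grn KO libraries of that background had 81095, 42333 and 16171 CPM, the last being the Hemi library with few microglial and many neuronal markers. Even this library lay above all libraries of both Grn WT and Grn HET with Tmem106b HET. It lay below Tmem106b KO Grn WT replicate 1, at 16744 CPM.

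**Figure D1:**
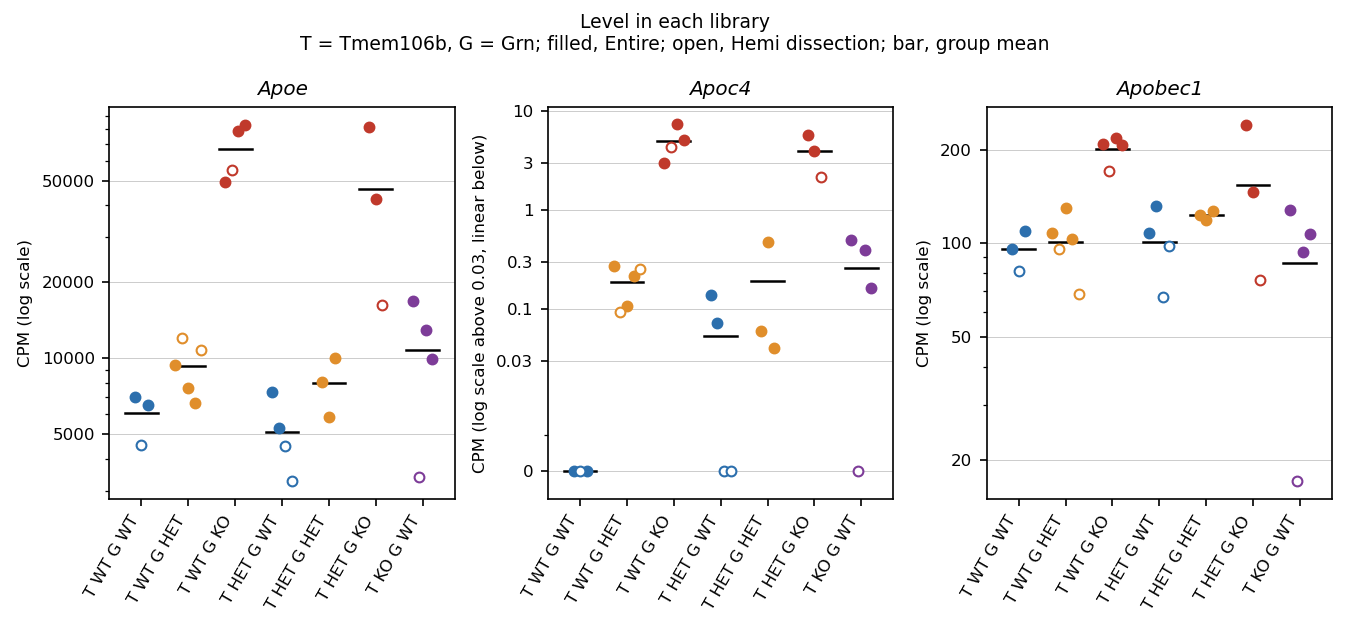
Levels of Apoe, Apoc4 and Apobec1 in CPM (vertical axes, log scale, linear below 0.03 for Apoc4) in each library of the 7 genotype groups, with a bar at the group mean. Apoe and Apoc4 in the 7 Grn KO libraries (red) lie above those of the Grn WT and Grn HET libraries of the same Tmem106b genotype, and Apobec1 does so in Tmem106b WT but not in Tmem106b HET.

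Apoe rose 9.97-fold in Grn KO against Grn WT with Tmem106b WT (log2 fold change 3.32 ± 0.48 SE, edgeR adjusted p = 0.0033) and 7.79-fold with Tmem106b HET (2.96 ± 0.44 SE, edgeR adjusted p = 0.0016). The mean rose from 6051 ± 1325 (n = 3) to 66400.5 ± 16678 CPM (n = 4) in the first background and from 5109 ± 1709 (n = 4) to 46533 ± 32665 CPM (n = 3) in the second. Against Grn HET the fold changes were 6.29 with Tmem106b WT (2.65 ± 0.38 SE, edgeR adjusted p = 0.0016) and 5.61 with Tmem106b HET (2.49 ± 0.50 SE, edgeR adjusted p = 0.01; 0.063 without Tmem106b HET Grn HET replicate 2). Apoe took 4.55% to 7.11% of all counts in Tmem106b WT Grn KO and 1.99% to 6.95% in Tmem106b HET Grn KO, and no gene had more counts in any of these 7 libraries. In the 19 other libraries it took 0.348% to 1.56% and ranked between 2 and 20. Per length, as the authors' RPKM, Apoe had a level of 27919 ± 5540.0 in Tmem106b WT Grn KO (n = 4) and 2681 ± 374 in Tmem106b WT Grn WT (n = 3).

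The increase held within the Entire libraries alone, at log2 fold changes of 3.20 (edgeR adjusted p = 0.0017) with Tmem106b WT and 3.25 (edgeR adjusted p = 0.00072) with Tmem106b HET; the Hemi libraries are too few for a fit of their own. Without Tmem106b WT Grn WT replicate 2, the Hemi library of a group of 3, the first contrast gave 3.15 with an edgeR adjusted p of 0.078. Markers of other cells moved with the contrast: with Tmem106b HET 9 of 12 neuronal markers rose, and their sums were 719 to 6509 CPM in Grn KO against 65.6 to 1434 CPM in Grn WT. With Tmem106b WT none of the 12 passed by edgeR or limma-voom, but 9 had an unadjusted p under 0.05, DESeq2 passed 6, and their median log2 fold change was 2.23 where that of all genes was 0.10. Their sums there were 611 to 1065 CPM in Grn KO against 120.4, 147 and 1422 CPM in Grn WT, the last in the Hemi library. Astrocyte markers summed to 506 to 1261 CPM in Grn KO against 456 to 639 CPM in Grn WT with Tmem106b WT. With Tmem106b HET these sums were 464 to 585 against 382 to 1387 CPM. The median log2 fold changes of the 10 astrocyte markers were 1.04 and -0.74. By edgeR none passed with Tmem106b WT, and Slc1a3 fell with Tmem106b HET. Of 10 microglial markers 1 (Tmem119) fell with Tmem106b WT, where 7 had an unadjusted p under 0.05 and DESeq2 passed 5, and 8 fell with Tmem106b HET. Summed, they stood at 24869 to 37307 CPM in Grn KO against 39949 to 59378 CPM in Grn WT with Tmem106b WT, though Fcrls, 1 of the 10, overlapped between the groups at 1897 to 3106 and 1809 to 2881 CPM. DESeq2 with its default single dispersion iteration did not pass Apoe in any of the 4 Grn KO contrasts (adjusted p = 0.14 and 0.081 against Grn WT, 0.23 and 0.23 against Grn HET, Tmem106b WT first); with 20 iterations, an alternative added after this was seen, it passed in all 4 (2.5e-13, 1.9e-11, 4.6e-11 and 8e-07). The dispersion it used for Apoe was 1.43 in the first case and 0.13 in the second, beside 0.138 in edgeR. With the sums of neuronal, oligodendrocyte and choroid plexus markers as covariates, Apoe's log2 fold changes against Grn WT were 3.37 (edgeR adjusted p = 0.034) and 3.30 (edgeR adjusted p = 0.12). With only the groups compared in the fit, the edgeR adjusted p of Apoe with Tmem106b HET was 0.15 against Grn WT and 0.12 against Grn HET, and with the marker sums it was 0.25 against Grn HET. The part of astrocytes and of the lower sum of microglial markers in the result was not tested. In bulk libraries fewer cells of a type and less RNA per cell cannot be told apart.

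Apoc4, the small apolipoprotein gene that follows Apoc1 in the cluster, went from almost no reads to 125 to 295 reads a library. In Tmem106b WT Grn WT all 3 libraries were at 0. Grn HET had 0.270, 0.0928, 0.107, 0.217 and 0.254 CPM, from 5 to 14 reads each. Grn KO had 2.99, 4.29, 7.30 and 5.12 CPM, from 173 to 295 reads. The 3 Grn genotypes did not overlap in this background, and Grn KO stood far from both others. With Tmem106b HET, Grn WT had 0.139, 0.0733, 0 and 0 CPM, Grn HET 0.0601, 0.476 and 0.0407 CPM, and Grn KO 5.64, 3.92 and 2.14 CPM. Again every Grn KO library was the higher, and its lowest was the Hemi library with the fewest microglial markers.

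Against a floor of 3 reads over the Grn WT group (0.0249 CPM), Apoc4 was at least 198-fold higher in Tmem106b WT Grn KO, at 4.93 ± 1.81 CPM (n = 4, edgeR adjusted p = 0.011); the fitted log2 value of 10.37 ± 1.81 SE depends on the prior count, since Grn WT was at 0. With Tmem106b HET it rose 87.2-fold in the fit (log2 fold change 6.45 ± 1.23 SE, edgeR adjusted p = 0.0043), from 0.0530 ± 0.0667 (n = 4) to 3.90 ± 1.75 CPM (n = 3). Against Grn HET the log2 fold change was 4.64 ± 1.30 SE with Tmem106b HET (edgeR adjusted p = 0.042), a call that every left-out library ended (adjusted p 0.06 to 0.14). With Tmem106b WT it was 4.29 ± 1.03 SE and did not pass (edgeR adjusted p = 0.056). Leaving out any 1 of the 3 Tmem106b WT Grn WT libraries ended Apoc4's call in that background, with edgeR adjusted p-values of 0.067, 0.14 and 0.075 without replicates 1, 2 and 3. With the marker sums as covariates Apoc4 did not pass against Grn WT in either background (edgeR adjusted p = 0.062 and 0.25), nor did it with only the groups compared in Tmem106b HET (edgeR adjusted p = 0.17).

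Apoc4 remained a minor transcript next to Apoe. Per length, the authors' RPKM level was 7.07 ± 2.33 for Apoc4 in Tmem106b WT Grn KO (n = 4), and 27919 for Apoe. The strand setting of the counting is not known here, and 4.7% of the exonic bases of Apoc4 lie in exons of Gm44805, which had 0 counts in all 26 libraries.

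Apoc2, the activator of lipoprotein lipase, had 7 reads in all: 5 in Tmem106b WT Grn KO replicate 3, 1 in replicate 2 of that group and 1 in Tmem106b HET Grn KO replicate 2. The other 23 libraries were at 0, which at 3 reads allows up to 0.0485 to 0.0867 CPM in a library, for counting error only. Because 79.5% of its exonic bases are shared with Gm44805, reads from Apoc2 may have been left uncounted. Of 149 protein-coding genes whose exonic bases were all shared with other genes, 70.5% had no count in any library, against 22.8% of 15347 genes that shared none and 10% of 130 genes that shared 70% to 90%. A low level of Apoc2 and uncounted reads cannot be told apart here.

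Apoc1, which lies between Apoe and Apoc4, was at 0 to 6.65 CPM. In Tmem106b WT the Grn WT libraries had 0.334, 0.448 and 0.231 CPM, from 8 to 21 reads. Grn HET had 0.791, 6.65, 2.47, 2.62 and 3.84 CPM, and Grn KO 0.760, 3.66, 3.0 and 2.05 CPM. Neither group overlapped Grn WT, while they overlapped each other. With Tmem106b HET, Grn WT had 1.15, 0.385, 0.850 and 0.711 CPM, Grn HET 0.341, 0 and 0.468 CPM, and Grn KO 1.85, 1.96 and 2.96 CPM. Here Grn KO again did not overlap Grn WT, but Grn HET had the lowest mean.

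None of these Apoc1 differences passed the test. In Grn KO against Grn WT the log2 fold change was 2.65 ± 1.08 SE (edgeR adjusted p = 0.31) with Tmem106b WT and 1.58 ± 0.92 SE (edgeR adjusted p = 0.26) with Tmem106b HET. In Grn HET against Grn WT with Tmem106b WT it was 2.94 ± 1.08 SE (edgeR adjusted p = 1), and with Tmem106b HET it had the opposite sign, -0.97 ± 1.07 SE (edgeR adjusted p = 0.9). With Tmem106b WT, DESeq2 passed Apoc1 in Grn KO and in Grn HET against Grn WT, at adjusted p-values of 0.028 and 0.02. In Grn KO against Grn HET with Tmem106b HET the log2 fold change of Apoc1 was 2.55 ± 1.15 SE (edgeR adjusted p = 0.18). The groups did not overlap there, and DESeq2 passed Apoc1. The 2 highest Apoc1 levels, in Tmem106b WT Grn HET replicates 2 and 5, came from libraries with 3686 and 25477 CPM of choroid plexus markers. Replicate 4 of that group had 4567 CPM of these markers but 2.62 CPM of Apoc1. The part of choroid plexus cells in the level was not tested. In the Hemi libraries Apoc1 had a median of 2.32 CPM (0.448 to 6.65 CPM, n = 8) and in the Entire libraries of 0.970 CPM (0 to 3.0 CPM, n = 18).

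**Figure D2:**
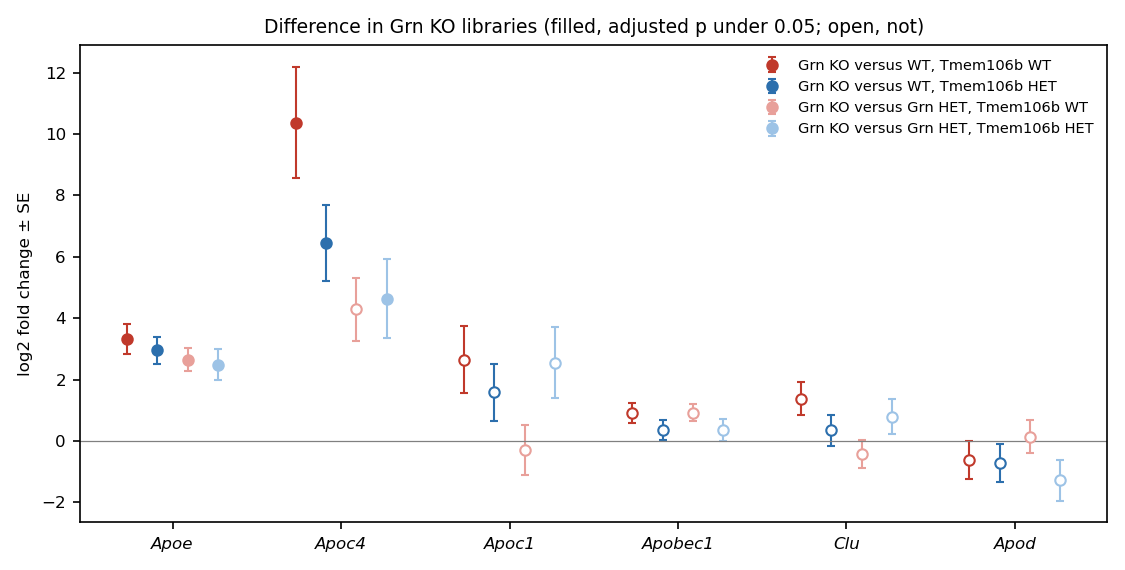
Log2 fold change (vertical axis) ± SE of the 6 tested members in Grn KO against Grn WT and against Grn HET, for each Tmem106b background; filled points passed at an adjusted p under 0.05. Apoe is filled in all 4 contrasts and Apoc4 in 3, and the fitted value of Apoc4 in Tmem106b WT (10.37) rests on a Grn WT group at 0 reads.

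The increase on chromosome 7 did not extend evenly to the genes around the cluster. Of 8 neighbours, from Clasrp on the Apoc2 side to Bcl3, whose start lies 123.6 kb from that of Apoe on the other, none passed in Grn KO against Grn WT with Tmem106b WT by edgeR, DESeq2 or limma-voom, and 0 had an unadjusted p under 0.05; their median log2 fold change was -0.04, and that of all genes 0.10. Tomm40, which encodes the import pore of the outer mitochondrial membrane and starts 16.2 kb from Apoe, had a log2 fold change of 0.04 ± 0.26 SE (edgeR adjusted p = 0.97). With Tmem106b HET 2 of 8 passed: Tomm40 rose (0.78 ± 0.24 SE, edgeR adjusted p = 0.038) and Clptm1, on the Apoc2 side, fell (-0.46 ± 0.15 SE, edgeR adjusted p = 0.047). Both are small beside Apoe's change of 2.96 in the same contrast, where 14.5% of all genes passed.

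**Figure D3:**
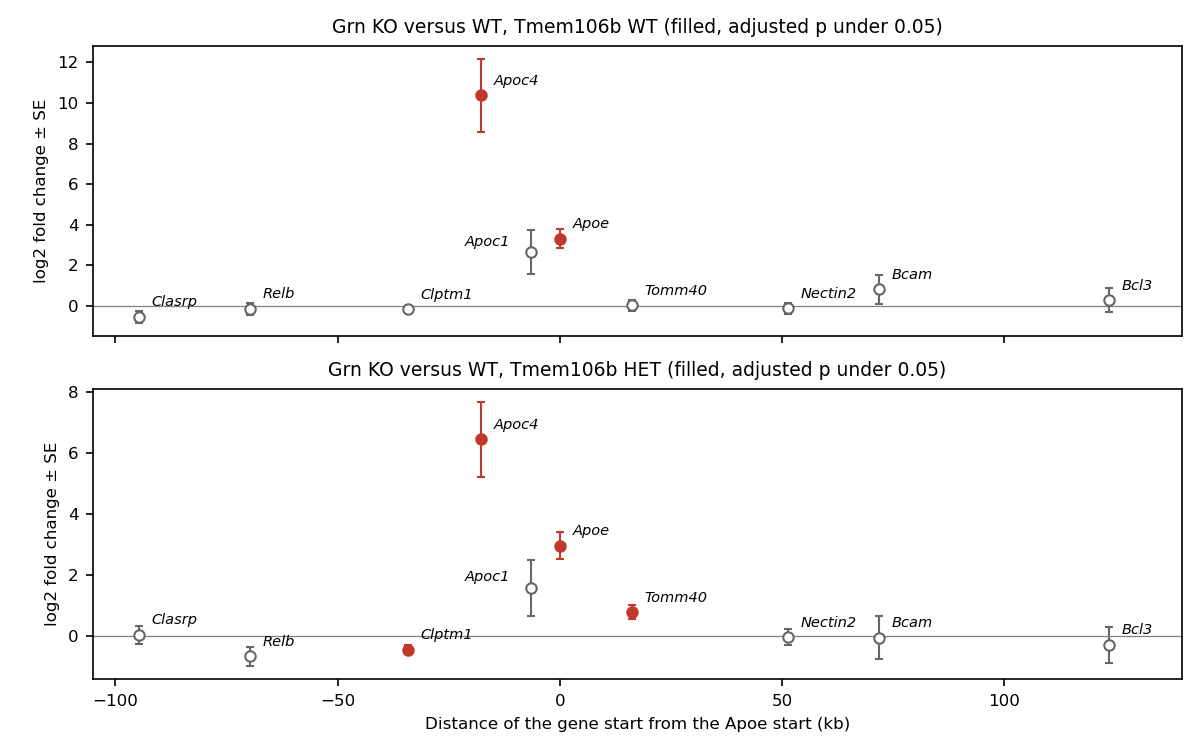
Log2 fold change (vertical axis) ± SE in Grn KO against Grn WT for genes by the distance of their start from that of Apoe in kb (horizontal axis), for Tmem106b WT (top) and Tmem106b HET (bottom); filled points passed. Apoc2, which was not tested, and Cblc, whose reads were too few for a bounded error, are not drawn. Apoe and Apoc4 stand above the genes on both sides in both panels, and only in the lower panel are Tomm40 and Clptm1 filled.

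Apobec1, the editing enzyme, was higher in every Tmem106b WT Grn KO library but did not pass the test. Grn WT had 96.1, 81.6 and 109.7 CPM, Grn HET 108, 95.8, 129.9, 103 and 68.5 CPM, and Grn KO 209, 170.5, 219 and 207 CPM. Grn KO overlapped neither. The log2 fold change was 0.92 ± 0.33 SE against Grn WT (edgeR adjusted p = 0.25) and 0.92 ± 0.28 SE against Grn HET (edgeR adjusted p = 0.16). Within the Entire libraries both contrasts passed, with log2 fold changes of 0.97 (edgeR adjusted p = 0.042) and 0.89 (edgeR adjusted p = 0.012). The first of these rests on 2 Grn WT libraries. Of 9 alternatives that kept every library or only the Entire ones, 2 passed against Grn WT and 4 against Grn HET. With 1 library left out neither contrast passed (edgeR adjusted p 0.26 to 0.59 and 0.13 to 0.31).

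With Tmem106b HET, Apobec1 stood at 241, 146 and 76.1 CPM in Grn KO, and the groups overlapped. Its lowest value came from the Hemi library with few microglial markers. Grn WT had 108, 132, 67.2 and 97.8 CPM and Grn HET 123, 119 and 127 CPM. The log2 fold changes were 0.35 ± 0.33 SE (edgeR adjusted p = 0.51) and 0.37 ± 0.36 SE (edgeR adjusted p = 0.56). The difference between the backgrounds, tested as an interaction, was -0.58 ± 0.46 SE (edgeR adjusted p = 0.87). The lowest Apobec1 level of all, 17.1 CPM, was in Tmem106b KO Grn WT replicate 2, the other library with few microglial markers.

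Clu, the chaperone clusterin, varied widely within genotype groups. It was at 63.9 to 147 CPM in Tmem106b WT Grn WT, at 77.7 to 1421 CPM in Grn HET and at 137 to 374 CPM in Grn KO. Its log2 fold change in Grn KO against Grn WT was 1.37 ± 0.54 SE (edgeR adjusted p = 0.3) with Tmem106b WT and 0.34 ± 0.50 SE (edgeR adjusted p = 0.69) with Tmem106b HET. Neither passed, and the groups overlapped in both. The 1421 CPM of Tmem106b WT Grn HET replicate 5 stood beside 25477 CPM of choroid plexus and ependymal markers, of which the transthyretin gene Ttr alone gave 22881 CPM. The next Clu levels, 442 CPM in Tmem106b KO Grn WT replicate 2 and 383 CPM in Tmem106b HET Grn WT replicate 3, came from libraries with 300.2 and 43.5 CPM of these markers but 6465 CPM of neuronal and 24969 CPM of oligodendrocyte markers, respectively. Their astrocyte markers summed to 862 and 1387 CPM, with 707 of the 862 CPM from Aldoc alone. Tmem106b WT Grn KO replicate 2, with 374 CPM of Clu, had 1261 CPM of astrocyte markers. The library at 1421 CPM of Clu had 653 CPM of them, and the Entire libraries had 382 to 723 CPM. Clu had a median of 346 CPM in the 8 Hemi libraries (109 to 1421) and of 116 CPM in the 18 Entire libraries (63.9 to 263); the part of these cells in the levels was not tested.

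**Figure D4:**
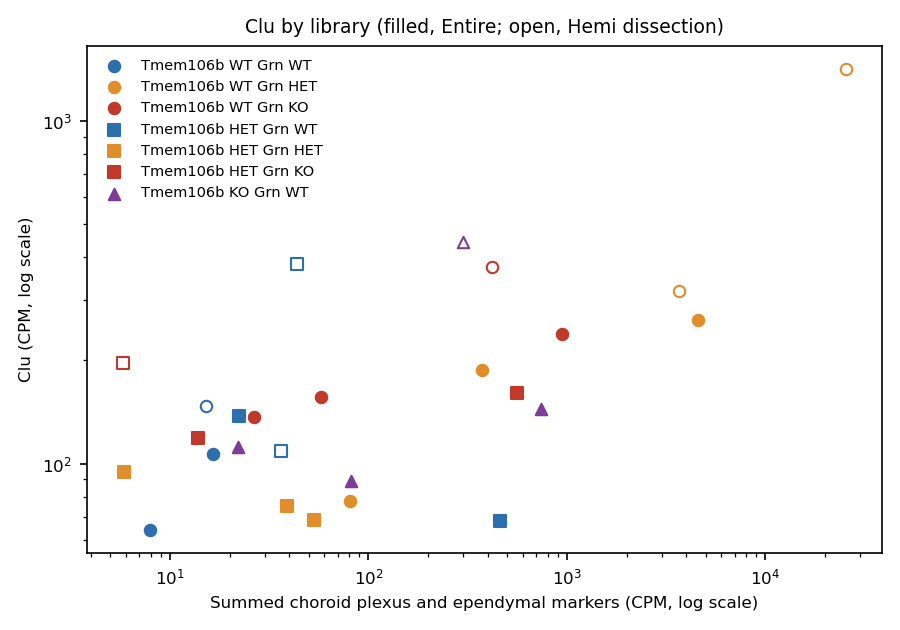
Clu (vertical axis, CPM, log scale) against the summed choroid plexus and ependymal markers (horizontal axis, CPM, log scale), with 1 point for each of the 26 libraries, coloured by Grn genotype (purple for Tmem106b KO) and shaped by Tmem106b genotype. The library at 1421 CPM of Clu is also that with the most marker RNA, and the open points (Hemi) hold the 5 highest Clu levels.

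Apod, the lipocalin, was at 312 to 1370.1 CPM in all libraries but Tmem106b KO Grn WT replicate 2, where it was at 99.5 CPM. In Grn KO it had 621, 1026, 418 and 809 CPM with Tmem106b WT and 787, 312 and 343 CPM with Tmem106b HET. Both groups overlapped their Grn WT groups, which had 1058, 1273 and 734 CPM and 755, 376, 1330.1 and 543 CPM. The log2 fold changes were -0.62 ± 0.61 SE (edgeR adjusted p = 0.74) and -0.72 ± 0.63 SE (edgeR adjusted p = 0.48).

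**Figure D5:**
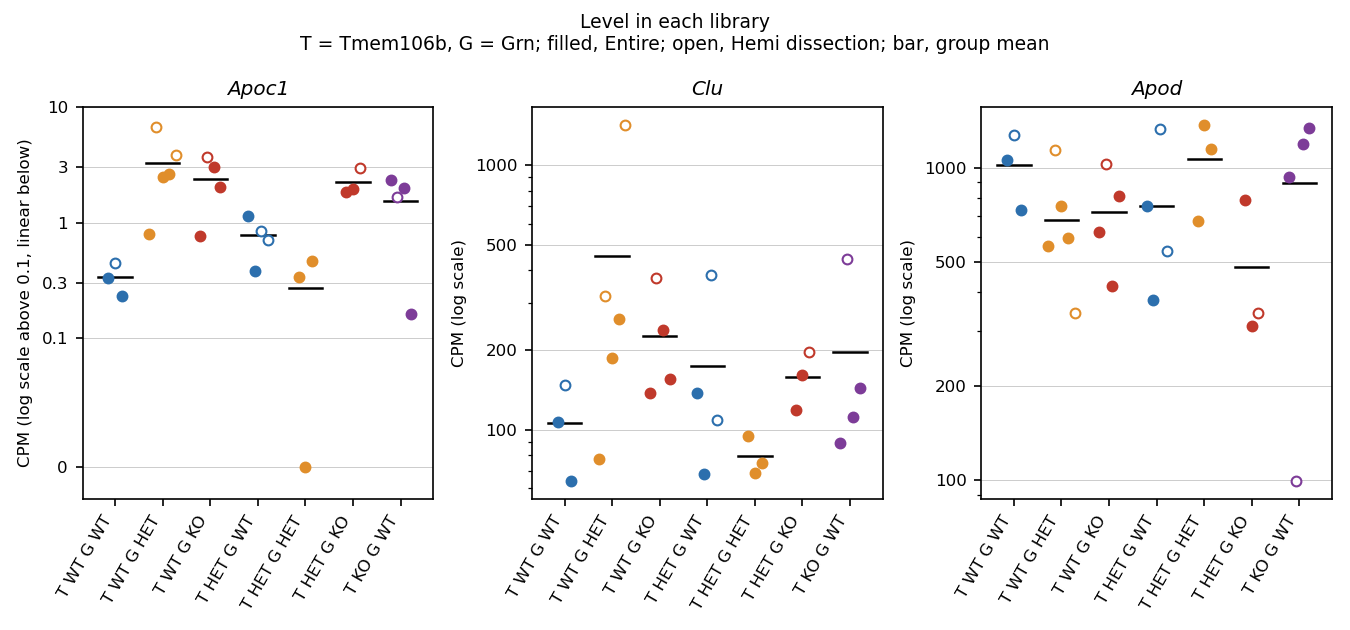
Levels of Apoc1, Clu and Apod in CPM (vertical axes, log scale, linear below 0.1 for Apoc1) in each library of the 7 genotype groups, with a bar at the group mean. Apoc1 is lowest in Tmem106b WT Grn WT and Tmem106b HET Grn HET by group mean, the 5 highest Clu levels are open points (Hemi), and Apod overlaps between all groups.

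Loss of a single Grn copy gave no passing member, and Grn itself did not pass in these contrasts. With Tmem106b WT, Grn stood at 1414 ± 427 CPM (n = 5) against 3344 ± 906 CPM (n = 3), without overlap. Its log2 fold change was -1.59 ± 1.24 SE. With Tmem106b HET it stood at 1835 ± 249.9 (n = 3) against 2979 ± 811 CPM (n = 4), also without overlap (-0.24 ± 1.29 SE, edgeR adjusted p = 0.85). Grn's SE was larger here than Apoe's (0.43 and 0.45), in a fit that also holds the Grn KO libraries. Its fitted -0.24 stood beside a ratio of means of 0.616. So Grn is no measure of how well the test finds changes in the members. The lack of passing members does not show that they were unchanged. In Grn HET against Grn WT, 0 of 6 members passed in either background by edgeR, where 0% of all genes passed; 734 genes with Tmem106b WT and 1183 with Tmem106b HET had an unadjusted p under 0.05. Of the members, Clu, Apoc1 and Apoc4 had an unadjusted p under 0.05 with Tmem106b WT and DESeq2 passed all 3, limma-voom none; with Tmem106b HET the counts were 0 by each measure. Apoe stood at 9303 ± 2198 CPM (n = 5) against 6051 ± 1325 CPM (n = 3) with Tmem106b WT, a log2 fold change of 0.67 ± 0.43 SE (edgeR adjusted p = 1). With Tmem106b HET it was at 7958 ± 2074 (n = 3) against 5109 ± 1709 CPM (n = 4), a log2 fold change of 0.47 ± 0.45 SE (edgeR adjusted p = 0.88). For Apoc4 the Grn HET mean of 0.188 CPM with Tmem106b WT was at least 7.55-fold above the floor of the Grn WT group. Clu had a log2 fold change of 1.79 ± 0.53 SE there (edgeR adjusted p = 1), which was 1.14 without Tmem106b WT Grn HET replicate 5.

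Tmem106b genotype gave no passing member either. Tmem106b KO against WT had 1 passing gene of 21371 (0.00468%), Tmem106b itself, and Tmem106b HET against WT had 0% in each Grn genotype, with 2349 genes at an unadjusted p under 0.05 in the first and 745 (Grn WT), 1451 (Grn HET) and 811 (Grn KO) in the others. In these HET contrasts Tmem106b itself had log2 fold changes of -0.30 ± 0.22, -0.30 ± 0.23 and -0.40 ± 0.22 SE, did not pass, and overlapped in each. Its mean in Tmem106b HET Grn WT was 77.5% of that in Tmem106b WT Grn WT. In Tmem106b KO, Apoe had 16744, 3398, 12930.4 and 9954 CPM. The 3 Entire libraries were above all Tmem106b WT Grn WT libraries, and the Hemi library, with few microglial markers, was below them. The log2 fold change was 0.72 ± 0.42 SE (edgeR adjusted p = 0.53), and 1.01 at the most when a library was left out. Apoc4 had 0.495, 0, 0.391 and 0.163 CPM in Tmem106b KO, at least 10.5-fold above the Grn WT floor by its mean of 0.262 CPM, and did not pass (edgeR adjusted p = 0.43), though DESeq2 passed it. Apoc1 and Apoc4 were the members with an unadjusted p under 0.05, and limma-voom passed none.

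Between Tmem106b HET and WT, Apoe had log2 fold changes of -0.21 ± 0.42 SE in Grn WT, -0.41 ± 0.46 SE in Grn HET and -0.57 ± 0.42 SE in Grn KO (edgeR adjusted p = 1, 0.94 and 0.92). The Grn KO value compares 46533 ± 32665 CPM (n = 3) with 66400.5 ± 16678 CPM (n = 4), and was -0.23 in the Entire libraries. The interaction of Grn KO with Tmem106b HET was -0.36 ± 0.60 SE for Apoe (edgeR adjusted p = 0.92), an error that leaves room for a sizeable difference either way. No member passed in either interaction (0% of genes, with 917 and 1196 at an unadjusted p under 0.05), also by DESeq2 and limma-voom; Clu, Apoc1 and Apoc4 had an unadjusted p under 0.05 in that of Grn HET. In Tmem106b HET against WT within Grn HET, Clu had a log2 fold change of -1.74 ± 0.54 SE (edgeR adjusted p = 0.62), and Clu and Apoc1 passed with DESeq2. Within Grn WT, Apoc4 had an unadjusted p under 0.05 and no tool passed a member; within Grn KO there was none by any measure.

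The other apolipoprotein genes were scarce. Of 21 listed, 11 were tested and none passed in Grn KO against Grn WT by edgeR in either background, with 3 at an unadjusted p under 0.05 in each; DESeq2 and limma-voom passed 0 with Tmem106b WT and 3 each with Tmem106b HET. Their median log2 fold change was 2.71 with Tmem106b WT and 1.90 with Tmem106b HET, where that of all genes was 0.10 and -0.02. It was also 2.11 in Tmem106b HET against WT within Grn WT. Apoa2, an apolipoprotein of high-density lipoprotein, passed in Grn KO against Grn HET with Tmem106b HET (edgeR adjusted p = 0.046), at 1.22 ± 1.58 (n = 3) against 0.0204 ± 0.0353 CPM (n = 3), so its spread exceeded its mean. Apob, whose mRNA is the classical target of Apobec1, had a mean level of 0.00370 RPKM over the 26 libraries.

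Among 18 tested receptors and receptor regulators none passed by edgeR in Grn KO against Grn WT with Tmem106b WT, where 5 had an unadjusted p under 0.05 and DESeq2 passed 3 and limma-voom 0. With Tmem106b HET 4 fell, against 6.05% of all genes, and 1 rose. The sorting receptor gene Sort1, whose product also binds progranulin, fell from 319 ± 12.6 CPM (n = 4) to 112 ± 45.9 CPM (n = 3), a log2 change of -1.60 ± 0.36 SE (edgeR adjusted p = 0.008). Lrp1, a main uptake receptor for APOE, fell by 1.36 ± 0.36 SE on the log2 scale (edgeR adjusted p = 0.018). Stab1, a scavenger receptor gene, and Mylip, whose product directs the LDL receptor to degradation, fell by 1.51 ± 0.37 SE and 1.66 ± 0.42 SE (edgeR adjusted p = 0.012 and 0.013). Lrpap1, the chaperone of these receptors, rose by 0.58 ± 0.18 SE (edgeR adjusted p = 0.034). Trem2 was the most abundant of the list per length (1371 RPKM over all libraries) and had log2 fold changes of 0.16 ± 0.34 SE and -0.17 ± 0.35 SE in the 2 backgrounds (edgeR adjusted p = 0.9 and 0.79). The median of the list was 0.08 with Tmem106b WT and -0.58 with Tmem106b HET, where the median of all genes was 0.10 and -0.02; 8 of 10 microglial markers fell in the latter contrast too.

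Of 15 tested genes for lipid transfer to and from particles and for cholesterol ester turnover, 2 rose and none fell in each Grn KO against Grn WT contrast, where 0.426% (Tmem106b WT) and 8.42% (Tmem106b HET) of all genes were higher, so the second count is near the background. Of the 15, 5 and 6 had an unadjusted p under 0.05, DESeq2 passed 3 and 5 and limma-voom 2 and 5. Nceh1, a cholesterol ester hydrolase of macrophages, rose in both: from 46.3 ± 4.98 (n = 3) to 212 ± 42.3 CPM (n = 4) with Tmem106b WT (2.32 ± 0.34 SE on the log2 scale, edgeR adjusted p = 0.0033) and from 50.6 ± 7.32 (n = 4) to 209 ± 41.5 CPM (n = 3) with Tmem106b HET (2.21 ± 0.31 SE, edgeR adjusted p = 0.0014). Soat1, which makes cholesterol esters, rose with Tmem106b WT (1.32 ± 0.29 SE, edgeR adjusted p = 0.036) and had 0.39 ± 0.27 SE with Tmem106b HET (edgeR adjusted p = 0.35). Abcg4, a sterol exporter that neurons express, rose with Tmem106b HET (3.17 ± 0.85 SE, edgeR adjusted p = 0.019), where neuronal markers rose too. The lysosomal acid lipase gene Lipa passed in Grn KO against Grn HET with Tmem106b WT (0.99 ± 0.23 SE, edgeR adjusted p = 0.046). Abca1, the main exporter of cholesterol to APOE, had -0.47 ± 0.42 SE and -1.29 ± 0.43 SE in the 2 contrasts with Grn WT (edgeR adjusted p = 0.71 and 0.051), opposite in sign to Apoe.

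Of the 11 genes for LXR and RXR receptors and their partners, the nuclear receptors known to switch on Apoe and Abca1, none passed by edgeR with Tmem106b WT, where 3 had an unadjusted p under 0.05 and DESeq2 passed 1 and limma-voom 0. With Tmem106b HET the RXR gene Rxrb fell by 0.61 ± 0.18 SE (edgeR adjusted p = 0.031), 1 of 11 where 6.05% of all genes were lower, which is near the background. Of 8 tested RNA editing genes none passed with Tmem106b WT (1 at an unadjusted p under 0.05; DESeq2 1, limma-voom 0). With Tmem106b HET Apobec3, a deaminase that restricts retroviruses, fell from 107 ± 34.8 (n = 4) to 48.8 ± 19.7 CPM (n = 3; -1.29 ± 0.33 SE, edgeR adjusted p = 0.013), 1 of 8 and likewise near the background. Rbm47, an RNA-binding partner of APOBEC1, had -0.14 ± 0.40 SE and -0.60 ± 0.41 SE (edgeR adjusted p = 0.93 and 0.34).

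The genes whose group means were most like those of Apoe were sought among 10830 genes with at least 5 CPM on average, by the root mean square difference of their log2 CPM over the 7 group means, each gene centred on its own mean. The nearest was Cst7, a cystatin that inhibits lysosomal proteases, at a difference of 0.26, with a level of 42.7 CPM in Tmem106b WT Grn WT and 351 CPM in Tmem106b WT Grn KO. Wfdc17 (0.30), Ms4a7 (0.30), Lilr4b (0.32) and Clec7a, the beta-glucan receptor gene (0.32), followed. For Apoc4 the nearest were Gpx3, a secreted glutathione peroxidase (0.54), Syt9 (0.67), Tesc (0.77), Cdo1 (0.80) and Lmo3 (0.84). Gpx3 went from 34.0 CPM in Tmem106b WT Grn WT to 1378 CPM in Tmem106b WT Grn KO and from 25.5 to 1085 CPM with Tmem106b HET. These are descriptions over 7 means that share their libraries with the members.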

How the data were processed

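Poly(A) RNA of mouse microglia was made into cDNA with SMART-Seq v4 and into libraries with Nextera XT, per the labels' protocols. Reads were aligned with GSNAP to GRCm38, per the submitters' processing notes; the counting program, its strand setting and the versions are not given in the sources used here. Each deposited file gives 1 library's read count per gene and an RPKM, the count scaled by the authors to gene length and sequencing depth. RPKM was used only to compare levels between genes.

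The members and gene lists were chosen with earlier results of these data known. Genes passing filterByExpr over 7 groups (21371 of 52636) were fitted with edgeR 4.0.16 (R 4.3.3): TMM scaling (factors 0.856 to 1.315), robust quasi-likelihood F-tests, group, sex and dissection as terms, all 26 libraries sharing 1 dispersion trend, Benjamini-Hochberg adjustment over all genes tested within each of 10 pairwise comparisons and 2 interactions. The SE is the log2 fold change divided by the root of F. CPM floors are 3 counts and cover counting error only. Named genes were all members, the listed genes that passed and the 5 genes of nearest pattern to each member that passed; Apob, Trem2, Abca1 and Rbm47 were picked for their known roles, with values in view. Alternatives were DESeq2 1.42.0, limma-voom (limma 3.58.1), DESeq2's size factors, no filter, no covariates, marker sums as covariates, only the groups compared, Entire libraries only and each library left out. Scripts were tested on simulated data.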

Additional observations from a re-analysis of the deposited data

Results flagged for a closer look

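In groups of 4 or 5 libraries, 25 member levels were tested for a single library far from the rest of its group, a test that chance passes about 1 time in 20, and 3 stood out. Clu was at 1421 CPM in Tmem106b WT Grn HET replicate 5, and at 77.7 to 319 CPM in the other libraries of that group. Clu was at 442 CPM in Tmem106b KO Grn WT replicate 2, and at 89.2 to 144 CPM in the others. Apoc2 was at 0.124 CPM (5 reads) in Tmem106b WT Grn KO replicate 3, and at 0 to 0.0180 CPM in the others.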

How the results depend on the processing

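The number of members that passed was 2, 2, 1 and 2 in Grn KO against Grn WT (Tmem106b WT, then HET) and against Grn HET (likewise), and it moved with the processing. With marker sums as covariates it was 1, 0, 1 and 0; with only the groups compared fitted, 0 against Grn WT in Tmem106b HET, and 3 and 0 against Grn HET. Default DESeq2 also gave 2 against Grn WT in Tmem106b WT and against Grn HET in Tmem106b HET, but these were Apoc1 and Apoc4, without Apoe. Default DESeq2 gave 1 (Apoc4) against Grn WT in Tmem106b HET and 2 (Apobec1, Apoc4) against Grn HET in Tmem106b WT, and 3 with 20 dispersion iterations there. In the latter contrast limma-voom gave 2 and Entire libraries alone 3. Against Grn HET in Tmem106b HET, no filter and no covariates each gave 1. Leaving out 1 library gave 0 to 2 against Grn WT in Tmem106b WT, where 0 was without Grn WT replicate 2. It gave 2 throughout in Tmem106b HET. Against Grn HET it gave 1 to 2 in Tmem106b WT and 0 to 1 in Tmem106b HET, where 0 was without Grn HET replicate 2. Both DESeq2 fits gave 3 members in Grn HET against WT with Tmem106b WT, 1 in Tmem106b KO against WT and 2 in Tmem106b HET against WT within Grn HET, where edgeR gave 0.

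Of the log2 fold changes of members given above, 479 alternative values kept direction and side of the threshold, 26 lost the call, 24 gained one and 4 changed sign. Those 4 were Clu in Grn KO against WT with Tmem106b HET (-0.14 without covariates, -0.16 with only the groups compared) and, in Entire libraries, Apoe in Tmem106b HET against WT within Grn HET (0.17) and in the interaction of Grn KO (0.05). The values printed were chosen after sign changes had been seen. Over every tested member in every comparison, 1137 kept direction and side, 65 changed sign, 28 gained and 26 lost the call. The cause was not tested.

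The count of all genes that passed moved more. Against Grn WT it was 1 to 376 (Tmem106b WT) and 1095 to 2753 (Tmem106b HET) with 1 library left out, and 14 to 1170 and 1 to 5276 under the other alternatives. No paired analysis was possible because the labels carry no replicate numbers. Apoc2 reads and the few Apoc4 reads outside Grn KO limit what their depth can show.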

Other observations

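Relative to Apoe, Grn KO libraries had 6.04 to 9.34 Apoc4 reads per 100000 Apoe reads with Tmem106b WT and 6.96 to 13.2 with Tmem106b HET. The other groups had 0 to 3.24, but Tmem106b HET Grn HET reached 8.16, so the groups overlapped in that background. Apoc1 per 100000 Apoe reads stood, with Tmem106b WT, at 1.54 to 6.67 in Grn KO, 3.52 to 9.86 in Grn WT and 8.46 to 55.2 in Grn HET. With Tmem106b HET the order differed: 2.29 to 18.3 in Grn KO, 7.26 to 21.7 in Grn WT and 0 to 4.69 in Grn HET. These ratios were not tested.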
